A study of Rattus norvegicus with 10 samples.

Results

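Ralgapa1 (probe accession NM_020083), V2R2B (AF053990) and QFG-TN1 (AF091565) are the genes other than Mepe (AF260922) that were listed as raised in rat tibial bone after mechanical loading, and they make up 3 of the 4803 accessions on the array. They were chosen for their ratio on the loaded arrays, so every value of LOAD against its control, and every difference between LOAD and SHAM, is given here as a description with no test. The mean SHAM ratio and the mean level of a rat's tibiae did not enter the choice. The effect of the dye, and the way in which the probes moved together from array to array, use the LOAD ratios again. They were taken apart from the group means, but the test that chose the probes also used the spread of the LOAD ratios. Their p-values are thus not independent of the choice.

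Ralgapa1, also called Garnl1, Tulip1 or GRIPE, encodes the catalytic alpha subunit of the RalGAP complex. This complex switches off the small GTPases RalA and RalB, which act in vesicle transport, and its catalytic domain is related to that of tuberin (Tsc2), the brake on Rheb and mTOR. V2R2B was annotated as a putative pheromone receptor of vomeronasal neurons. Receptors of this V2R family belong to class C of the G-protein coupled receptors, the class of the calcium-sensing receptor (Casr) and of the metabotropic glutamate receptors, and carry a large extracellular domain that binds the ligand. QFG-TN1 was annotated as an olfactory receptor. In the nose, olfactory receptors signal through a stimulatory G protein and cyclic AMP to the channel subunit Cnga2, and mature olfactory neurons carry the marker protein Omp. Mepe is a matrix glycoprotein of osteocytes and serves here as the probe with which the others were compared.

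The tibiae came from 10 female Wistar rats of 12 weeks. In LOAD (n = 5) the right tibia received 300 cycles of four-point bending at 2 Hz with the peak magnitude set at 60 N. The study reported that the force measured was above this setting. In SHAM (n = 5) the right tibia was squeezed between opposed pads and was not bent. The left tibia of each rat was the untreated contra lateral control, and both tibiae were collected 6 hours after the session. RNA came from the tibial shaft without its ends, periosteum and marrow, a mixture in which osteocytes, osteoblasts, lining cells and vessel cells can all contribute. Each array held a treated and a control tibia in different dyes, and in each group Cy3 marked the treated tibia on 3 arrays and Cy5 on 2. In such bulk RNA, fewer cells of a type and less RNA per cell cannot be told apart.

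Several facts about the arrays bear on the values below. One label field of SHAM 1 names it LOAD, but its title, its description and the scanner header name it sham, and it was counted as SHAM. In the headers the tibiae carry consecutive numbers on 8 arrays, an odd one for the treated and an even one for the control tibia, whereas LOAD 4 holds tibiae 3 and 26 and SHAM 4 holds tibiae 4 and 25. The ratios are therefore also given below with the tibiae of these arrays joined by consecutive numbers. Between 52.4 and 81.6% of the spots on an array carried signal in both channels. LOAD 4 had the lowest share. It also had the most spots with a confidence below 0.11, which were 166 against 32 to 68 on the other arrays. Of the osteocyte markers on the array, Mepe, Phex and Pdpn carried signal in 20 of 20 channels. The neuron markers Syp, Nefm and Gap43 did so too, and 3129 of 4707 genes tested carried signal in at least 15. Signal alone thus does not identify the tissue. All 8 skeletal muscle markers on the array, troponin-C included, had a mean ratio below 0 in LOAD (median log2 ratio -0.74), against 1 of 8 in SHAM (median 0.12). Among all 4707 genes tested, 2211 had a mean ratio above 0 in LOAD and 2412 in SHAM.

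Ralgapa1 gave a bright spot in every tibia. Its unnormalized intensity lay between 1358 and 6757, the probability that the channel carried signal reached 0.5 in 20 of 20 channels, and the confidence of the spot, on a scale from 0 to 1, lay between 0.85 and 0.99. After loess normalization the log2 ratio of loaded to control tibia was 0.67, 0.39, 0.57, 0.70 and 0.19 on LOAD 1 to LOAD 5. Each loaded tibia was thus above its control in the stated direction of the dyes, with LOAD 4 the highest and LOAD 5 the lowest. The mean was 0.50 ± 0.21 (SD, n = 5), which is 1.42-fold. A ratio above 0 on 5 of 5 LOAD arrays was found for 1.79% of the 4472 genes measured on all 10 arrays, and since the gene was chosen on this contrast nothing is read from that share.

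In SHAM the log2 ratio of Ralgapa1 was 0.48, -0.03, 0.40, -0.56 and 0.07 on SHAM 1 to SHAM 5. SHAM 1 and SHAM 3 lay above the lowest LOAD arrays, and SHAM 4 lay below every other array. The mean was 0.07 ± 0.41 (SD, n = 5, 95% interval -0.22 to 0.37), higher on 3 of 5 arrays, and 50.3% of all genes were higher on at least 3. No change from the contra lateral control was found in limma (standard error 0.13, adjusted p = 1.00) or in an exact 2-sided sign-flip test (p = 0.875, n = 5), in which 5 arrays cannot give a p below 0.063. In the SHAM fit the false discovery rate was below 20% for 0 of 4707 genes (0% of the genes tested), and 32 had an unadjusted p under 0.05 (0.68%).

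V2R2B was a dim spot. Its unnormalized intensity lay between 119 and 451, the signal probability reached 0.5 in 17 of 20 channels, and the confidence lay between 0.27 and 0.78. The log2 ratio was 1.11, 0.22, 0.87, 0.37 and 0.77 on LOAD 1 to LOAD 5. LOAD 1 was the highest and LOAD 2 the lowest, and all 5 were above 0. The mean was 0.67 ± 0.37 (SD, n = 5), or 1.59-fold. The highest ratio rested on a control tibia in which signal was unlikely, since the probability there was 0.26, and on LOAD 4 it was 0.31 in the loaded and 0.09 in the control tibia.

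In SHAM the log2 ratio of V2R2B was 0.45, 0.36, 0.56, -0.65 and -0.25. SHAM 1, SHAM 2 and SHAM 3 lay above LOAD 2, the lowest loaded array, and SHAM 4 was again the lowest. The spot on SHAM 4 had the lowest confidence, 0.27, and a signal probability of 0.50 in each channel, just at the limit. The mean of 0.09 ± 0.52 (SD, n = 5, 95% interval -0.29 to 0.48) was higher on 3 of 5 arrays and did not pass the test (limma standard error 0.18, adjusted p = 1.00, exact 2-sided sign-flip p = 0.688).

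QFG-TN1 was the dimmest of the probes in its lowest channel. Its unnormalized intensity lay between 98.8 and 399.5, the signal probability reached 0.5 in 16 of 20 channels, and the confidence lay between 0.41 and 0.69. The log2 ratio was 1.02, 0.02, 0.86, 0.21 and 0.58 on LOAD 1 to LOAD 5. All 5 values were above 0, but that of LOAD 2 was close to it. The mean was 0.54 ± 0.42 (SD, n = 5), or 1.45-fold. As for V2R2B, signal was unlikely in the control tibia of LOAD 1, with a probability of 0.11, and in both tibiae of LOAD 4, with 0.31 and 0.21.

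In SHAM the log2 ratio of QFG-TN1 was 0.37, 0.21, 0.44, -0.28 and -0.18. SHAM 1, SHAM 2 and SHAM 3 were above the lowest LOAD array, and SHAM 4 and SHAM 5 were below every LOAD array. The mean of 0.11 ± 0.33 (SD, n = 5, 95% interval -0.22 to 0.44) was higher on 3 of 5 arrays and did not pass the test (limma standard error 0.15, adjusted p = 1.00, exact 2-sided sign-flip p = 0.50).

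**Figure D1:**
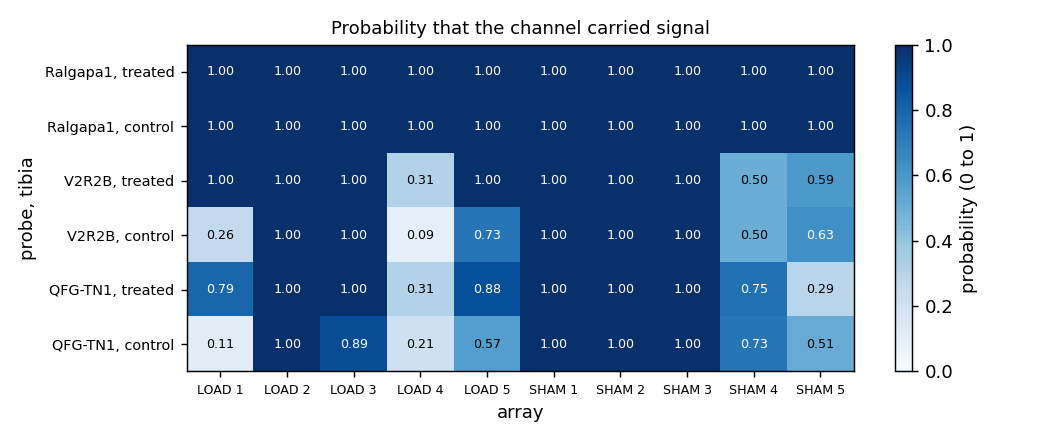
Probability, on a scale from 0 to 1, that a channel carried signal, for each of the 3 probes in the treated and the control tibia (rows) of each of the 10 arrays (columns). Ralgapa1 is at or above 0.5 in 20 of 20 channels, V2R2B in 17 and QFG-TN1 in 16. The values of the receptor probes under 0.5 lie on LOAD 1, LOAD 4 and SHAM 5, and V2R2B is at 0.50 in both channels of SHAM 4.

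Mepe, for comparison, had a log2 ratio of 1.43, 0.30, 1.24, 1.00 and 0.34 on LOAD 1 to LOAD 5, with a mean of 0.86 ± 0.52 (SD, n = 5). In SHAM it was 0.81, 0.11, 0.62, -0.83 and -0.06, with a mean of 0.13 ± 0.64 (SD, n = 5). LOAD 1 and LOAD 3 were high and LOAD 2 was low for Mepe and for both receptor probes. SHAM 4 was the lowest SHAM array for all 4 probes.

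The count of 5 LOAD arrays above 0 rests on the normalization and on the direction of LOAD 2. Before normalization its log2 ratio was -0.95 for Ralgapa1, -0.69 for V2R2B and -0.77 for QFG-TN1, below the array median of -0.68. Over all genes the ratios of LOAD 2 after loess had a correlation of -0.35 with those of LOAD 5. It was -0.34 with those of SHAM 2 and -0.14 with those of SHAM 4, and all of these arrays have the same dye orientation. With the sign of LOAD 2 turned, its log2 ratio would be -0.39 for Ralgapa1, -0.22 for V2R2B and -0.02 for QFG-TN1, each the lowest in LOAD. Then 4 of 5 LOAD arrays would be above 0 for each probe, as at least 4 would be for 17.9% of genes. The LOAD mean would be 0.35, 0.58 and 0.53, and its difference from SHAM 0.27, 0.49 and 0.42. The direction given in the labels and headers was kept.

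**Figure D2:**
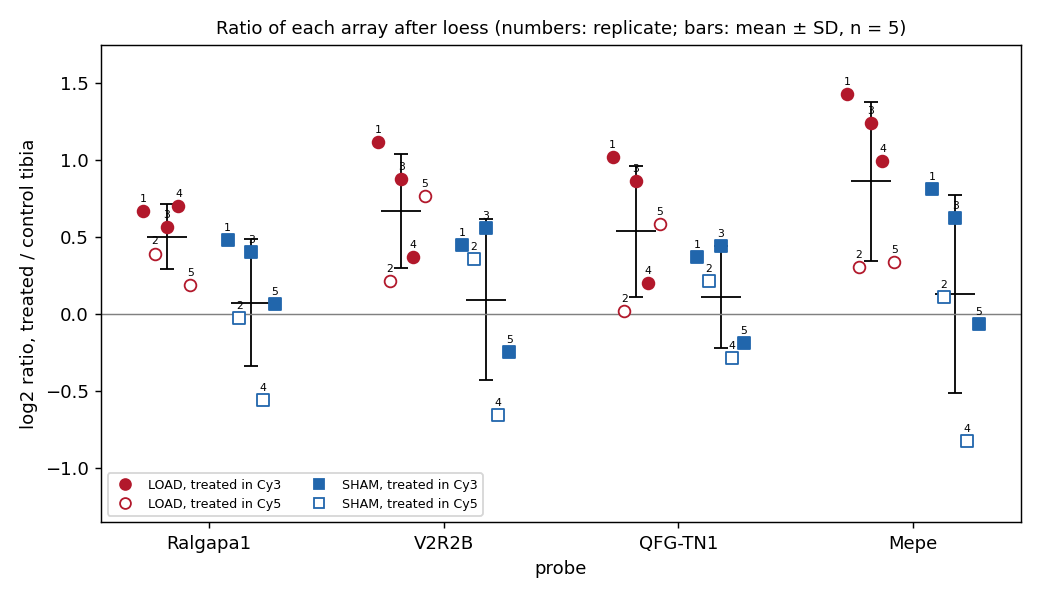
Log2 ratio of treated to control tibia on each array after loess, for Ralgapa1, V2R2B, QFG-TN1 and Mepe. Circles are LOAD, squares are SHAM, filled symbols had the treated tibia in Cy3, open symbols in Cy5, numbers are replicates, and bars give the mean ± SD (n = 5). All LOAD values are above 0, and for each probe at least 2 SHAM arrays lie above the lowest LOAD array.

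The difference between LOAD and SHAM ratios was 0.43 (standard error 0.19) for Ralgapa1, 0.58 (standard error 0.25) for V2R2B and 0.43 (standard error 0.21) for QFG-TN1, and it was 0.73 (standard error 0.32) for Mepe. The LOAD mean was above the SHAM mean for all of them, as it was for 47.3% of genes. The groups overlapped for each of them, while 0.112% of genes had every LOAD ratio above every SHAM ratio. The arrays were scanned in 4 batches that each held both groups. In batches 1 to 4 the difference was 0.30, 0.16, 1.26 and 0.13 for Ralgapa1, 0.26, 0.32, 1.03 and 1.01 for V2R2B, and 0.22, 0.42, 0.49 and 0.77 for QFG-TN1. Batches 2 to 4 held 1 array of each group, and the share of all genes with such a pattern over batches was not computed. For Ralgapa1 the difference in batch 3, which held only LOAD 4 and SHAM 4, stood far from the other batches. In batches 3 and 4 the arrays also differed in the dye of the treated tibia, so dye and group cannot be told apart there.

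With the tibiae of LOAD 4 and SHAM 4 joined by consecutive numbers, the ratios of these arrays changed sign. For Ralgapa1 LOAD 4 went from 0.70 to -0.17 and SHAM 4 from -0.56 to 0.32. For V2R2B LOAD 4 went from 0.37 to -0.67 and SHAM 4 from -0.65 to 0.39, and for QFG-TN1 LOAD 4 went from 0.21 to -0.31 and SHAM 4 from -0.28 to 0.23. Under this pairing 4 of 5 LOAD arrays and 4 of 5 SHAM arrays were above 0 for each of the 3 probes, while 16.7% of genes were above 0 on at least 4 LOAD arrays and 16.7% on at least 4 SHAM arrays.

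The means for LOAD and SHAM became 0.33 and 0.25 for Ralgapa1, 0.46 and 0.30 for V2R2B, and 0.44 and 0.21 for QFG-TN1. Their differences shrank to 0.08, 0.16 and 0.22. Mepe, with means of 0.67 and 0.33, kept a ratio above 0 on 5 of 5 LOAD arrays. These rebuilt ratios set channels of different arrays against each other, so they lack the cancellation of spot effects within an array. Without both arrays numbered 4 the LOAD ratio was 0.46 for Ralgapa1, 0.74 for V2R2B and 0.62 for QFG-TN1. The difference from SHAM was then 0.22, 0.46 and 0.41, and without SHAM 4 alone it was 0.27, 0.39 and 0.33.

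**Figure D3:**
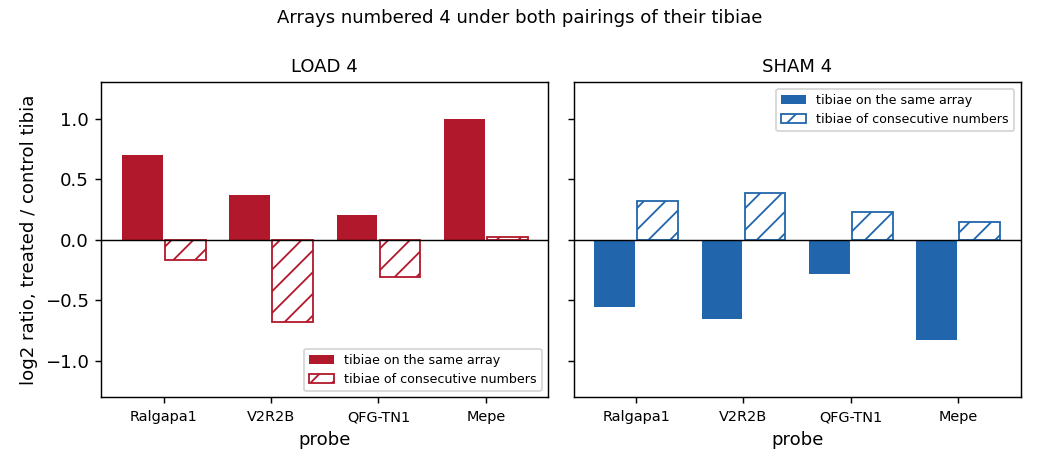
Log2 ratio of treated to control tibia on LOAD 4 (left) and SHAM 4 (right) for the 3 probes and Mepe. Filled bars pair the tibiae that shared an array, and hatched bars pair the tibiae of consecutive numbers (3 with 4, 25 with 26). The 3 probes change sign on both arrays, and the LOAD 4 value of Mepe goes from 1.00 to 0.02.

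The levels in the single tibiae showed a wide spread between rats. The log2 level of Ralgapa1 was 11.58, 12.14, 12.12, 11.36 and 11.76 in the loaded tibiae of LOAD 1 to LOAD 5 and 10.91, 11.74, 11.55, 10.66 and 11.57 in their controls. The mean was 11.79 ± 0.34 in loaded and 11.29 ± 0.47 in control tibiae, against 11.71 ± 0.60 in squeezed tibiae and 11.64 ± 0.40 in their controls (SD, n = 5 each). In mean, the loaded tibiae were close to the tibiae of the SHAM rats, and the control tibiae of the LOAD rats, LOAD 1 and LOAD 4 first among them, were the lower ones.

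For V2R2B the log2 level was 8.04, 9.07, 8.41, 7.35 and 9.001 in the loaded tibiae and 6.93, 8.85, 7.53, 6.98 and 8.23 in their controls. The means were 8.38 ± 0.71 and 7.71 ± 0.83, with 7.81 ± 0.70 in squeezed tibiae and 7.72 ± 0.49 in their controls. Here the controls of both groups were alike in mean, and the loaded tibiae of LOAD 2 and LOAD 5 were the highest of all. For QFG-TN1 the log2 level was 7.56, 8.43, 8.02, 7.26 and 8.85 in the loaded tibiae and 6.54, 8.41, 7.16, 7.06 and 8.27 in their controls. Its means were 8.02 ± 0.64 and 7.49 ± 0.81, with 7.69 ± 0.82 in squeezed tibiae and 7.58 ± 0.60 in their controls. For each probe the ranges of all 4 kinds of tibia overlapped.

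**Figure D4:**
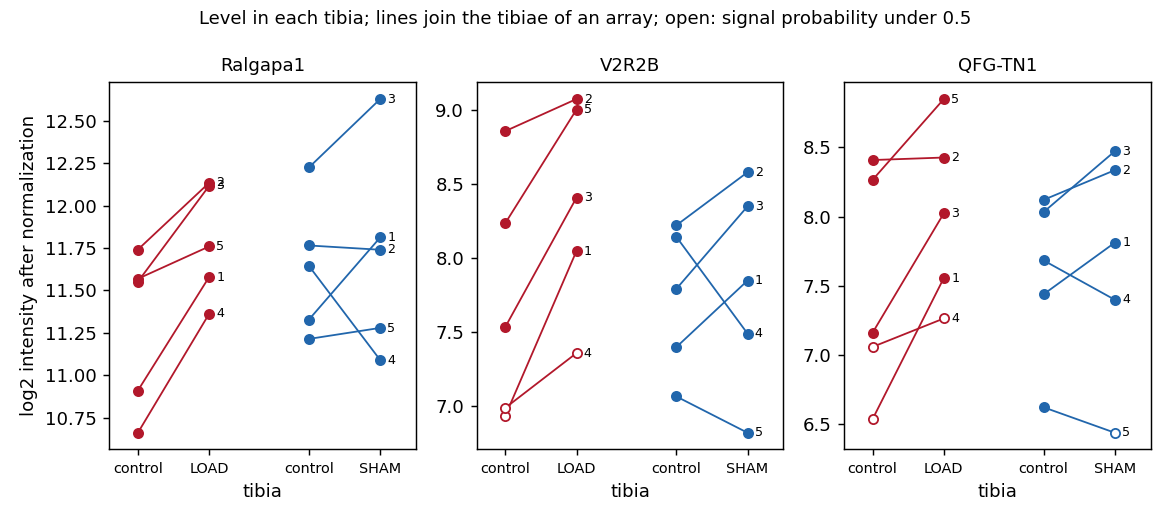
Log2 intensity after normalization in each tibia, for Ralgapa1, V2R2B and QFG-TN1 (each with its own vertical scale). Lines join the control and the treated tibia of an array, numbers are replicates, and open symbols had a signal probability under 0.5. All 5 LOAD lines go up and 3 of 5 do so in SHAM, while the rats differ among themselves by more than most lines go up.

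The mean level of a rat's tibiae, which the choice of the probes did not use, did not pass the test between LOAD and SHAM rats. It differed by -0.13 on the log2 scale for Ralgapa1 (standard error 0.25, limma adjusted p = 0.930, exact 2-sided permutation p = 0.651, n = 5 against 5). It differed by 0.27 for V2R2B (standard error 0.35, limma adjusted p = 0.905, exact permutation p = 0.524) and by 0.12 for QFG-TN1 (standard error 0.37, limma adjusted p = 0.967, exact permutation p = 0.817). In this fit 0 of 4472 genes passed (0%), and 248 had an unadjusted p under 0.05 (5.55%).

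All 3 probes, like Mepe, had a higher ratio where the treated tibia was in Cy3. For Ralgapa1 the mean log2 ratio in LOAD was 0.65 with Cy3 and 0.29 with Cy5, and in SHAM it was 0.32 and -0.29. For V2R2B it was 0.79 and 0.49 in LOAD and 0.25 and -0.15 in SHAM. For QFG-TN1 it was 0.70 and 0.30 in LOAD and 0.21 and -0.03 in SHAM.

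The dye coefficient, which is the difference between Cy5 and Cy3 arrays divided by 2, was -0.24 for Ralgapa1 (standard error 0.07, limma adjusted p = 0.229), just short of the 20% threshold. It was -0.17 for V2R2B (standard error 0.12, adjusted p = 0.558) and -0.16 for QFG-TN1 (standard error 0.10, adjusted p = 0.518), neither of which passed. That of Mepe, -0.43 (standard error 0.10, adjusted p = 0.186), passed, though not without LOAD 1, LOAD 4, LOAD 5, SHAM 1, SHAM 3 or SHAM 4 (adjusted p from 0.232 to 0.458). With all arrays 1.83% of genes passed in either direction and 1.27% in that of Mepe. With the dye as a term the mean LOAD ratio was 0.46 for Ralgapa1, 0.63 for V2R2B and 0.51 for QFG-TN1, and that in SHAM was 0.03, 0.06 and 0.08.

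The next comparison asked how far the probes moved together from array to array. For each array the mean of its group was taken off, so that the raised LOAD mean does not enter, and the 10 deviations were correlated, with p-values from all orders of the arrays within their groups. Of the 6 pairs, V2R2B and QFG-TN1 were the closest. Their r was 0.94 and rho 0.93 (exact permutation p = 6.94e-05, the smallest that these orders can give, adjusted p = 0.000417 over 6 pairs). Without LOAD 2 and SHAM 4, the arrays farthest from the median, r was 0.95. The scan batches held too few arrays for an r of their own. With the mean of each dye orientation also taken off, r was 0.95 and rho 0.84 (exact permutation, adjusted p = 0.0417 for r), and between the levels of the 10 control tibiae they were 0.92 and 0.94 (adjusted p = 0.00583 for r).

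Ralgapa1 followed Mepe. Their r was 0.92 and rho 0.92 (exact permutation p = 0.00222, adjusted p = 0.00667), and r was 0.84 without SHAM 1 and SHAM 4. With the mean of each dye orientation taken off, r was 0.87 and rho 0.73, and r no longer passed (exact permutation, adjusted p = 0.146). That test had only 144 orders, so the lost call cannot be laid to the dye alone. Between the levels of the control tibiae r was 0.87 and rho 0.83 (adjusted p = 0.00847 for r).

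The receptor probes were also related to Mepe. For V2R2B and Mepe r was 0.82 and rho 0.87 (exact permutation p = 0.0111, adjusted p = 0.0222), and r was 0.59 without LOAD 2 and SHAM 4. For QFG-TN1 and Mepe r was 0.78 and rho 0.83 (exact permutation p = 0.0157, adjusted p = 0.0235), and r was 0.63 without the same arrays. Both lost their call without SHAM 4, with r of 0.69 and 0.75 (exact permutation, adjusted p = 0.115 and 0.113). They also lost it without LOAD 1, LOAD 2 or SHAM 3, and QFG-TN1 without SHAM 1, with r from 0.74 to 0.80 (adjusted p from 0.05 to 0.0578). Both passed with the dye orientation taken off (r = 0.91 and 0.79, exact permutation, adjusted p = 0.0417 for each), between the control tibiae (r = 0.88 and 0.91, adjusted p = 0.0106 and 0.00646), with median centring (r = 0.92 and 0.94, adjusted p = 0.00156 for each) and without both arrays numbered 4 (r = 0.79 and 0.86, adjusted p = 0.0278 for each).

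For Ralgapa1 no relation with the receptor probes passed the test after loess. The r was 0.67 with V2R2B (rho 0.71, exact permutation p = 0.0708, adjusted p = 0.0849) and 0.54 with QFG-TN1 (rho 0.60, exact permutation p = 0.101, adjusted p = 0.101). Without SHAM 1 and SHAM 4 these became 0.32 and 0.33. This depended on the normalization, since r was 0.90 and 0.87 when each array was only centred on its median (adjusted p = 0.00242 and 0.00340). It also depended on single arrays, since both pairs passed without LOAD 4 (r = 0.78 and 0.68, exact permutation, adjusted p = 0.0400 and 0.0403) and without LOAD 5 (r = 0.76 and 0.60, adjusted p = 0.0383 and 0.0441). On LOAD 4 Ralgapa1 was above its group mean and both receptor probes were below theirs, and on LOAD 5 the order was the other way round.

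**Figure D5:**
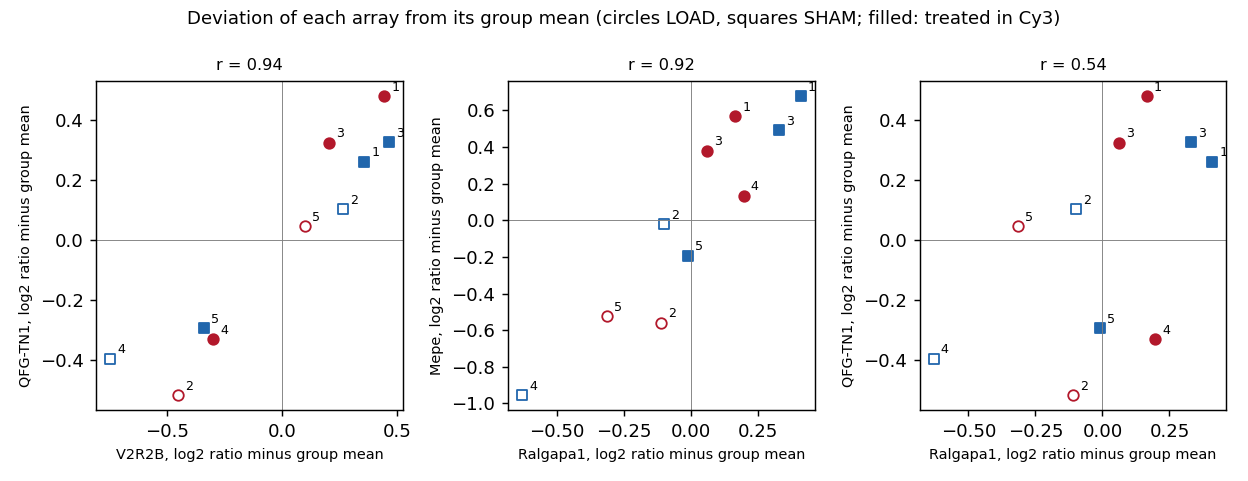
Deviation of the log2 ratio of each array from its group mean, for V2R2B against QFG-TN1 (left), Ralgapa1 against Mepe (middle) and Ralgapa1 against QFG-TN1 (right). Circles are LOAD, squares are SHAM, filled symbols had the treated tibia in Cy3, and numbers are replicates. The points lie near a line in the first panels (r = 0.94 and 0.92) and scatter in the right one (r = 0.54), where LOAD 4 and LOAD 5 stand off the diagonal.

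Among 3110 probes with signal in at least 15 of 20 channels and no missing value, those whose deviations were most like Ralgapa1 were Cd44, the cell surface receptor for hyaluronan and osteopontin, with r = 0.94, the probe D38082 with 0.93 and Mepe with 0.92. V2R2B ranked QFG-TN1 first with r = 0.94, then the probes AF091578 with 0.93 and M94537 with 0.88. QFG-TN1 in turn ranked V2R2B first, then M94537 with r = 0.94 and AF091578 with 0.89. Mepe ranked 13 for V2R2B and 29 for QFG-TN1, and Ralgapa1 ranked 61 and 246.

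Some of the most alike probes were not raised in LOAD. AF091578 and M94537 moved with the receptor probes from array to array, yet their mean log2 ratio in LOAD was -0.12 and -0.04, and in SHAM -0.19 and -0.03. Cd44 had 0.26 in LOAD and 0.05 in SHAM, and D38082 had 0.09 and 0.05. Whether r and the LOAD ratio were related over all probes compared was not tested. An r above 0.8 was reached by 19 probes for Ralgapa1, 16 for V2R2B and 19 for QFG-TN1, while the median r over all probes compared was 0.01, -0.03 and -0.02. These ranks are descriptions, since the arrays share spots, dyes and RNA. Only Ralgapa1, QFG-TN1, V2R2B, Mepe and Cd44 among the probes named in these ranks have a gene name here.

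The marker lists moved with the probes to different degrees. The median ratio of the 7 muscle markers measured on all arrays ranged from -1.49 to 0.03 over the LOAD arrays and from -0.41 to 0.88 over the SHAM arrays. Its deviations had r of -0.03 with Ralgapa1, 0.13 with V2R2B and 0.07 with QFG-TN1 (exact permutation, adjusted p = 0.983, 0.914 and 0.973 over 16 relations). The osteocyte markers without Mepe, which are Phex, a phosphate-regulating peptidase, and Pdpn, a membrane glycoprotein of young osteocytes, had a median ratio between -0.44 and 0.24 over the LOAD arrays and between -0.31 and 0.40 over the SHAM arrays. Their r was 0.75, 0.78 and 0.77 with Ralgapa1, V2R2B and QFG-TN1 (exact permutation, adjusted p = 0.0922 for each), short of the threshold of 0.05. The rho was 0.83, 0.85 and 0.79 (adjusted p = 0.0430, 0.0372 and 0.0569). By themselves, Phex had r of 0.75 with Ralgapa1 and 0.24 with QFG-TN1, and Pdpn had 0.42 and 0.84. The median of the osteoblast and bone matrix markers Spp1, Ibsp and Sparc had r of 0.40, -0.13 and -0.22 with Ralgapa1, V2R2B and QFG-TN1. For the olfactory or vomeronasal neuron markers measured on all arrays r was 0.52, 0.32 and 0.26. None of these medians passed (exact permutation, adjusted p from 0.382 to 0.914). The medians hid differences between markers. In the same order of probes, Spp1 had r of 0.37, 0.72 and 0.82. Ibsp had 0.36, -0.16 and -0.25, and Sparc had 0.42, -0.23 and -0.31. Of the muscle markers, Car3 had 0.67, 0.63 and 0.61, whereas Tnni2 had -0.38, -0.08 and -0.15. The r of single markers was not tested. The part of cell composition in the ratios of the 3 probes was not tested.

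Of the markers of olfactory or vomeronasal neurons, Omp carried signal in 4 of 20 channels and Cnga2 in 1. Gnao1, the G protein alpha subunit that V2R neurons share with many other neurons, carried signal in 20, with a mean log2 ratio of -0.12 ± 0.25 in LOAD and -0.07 ± 0.45 in SHAM. Of these 3 markers 1 had a mean ratio above 0 in LOAD. An oligonucleotide can also bind part of another transcript, and whether the receptor probes did so was not tested here. The study measured Ralgapa1, V2R2B and QFG-TN1 by real-time RT-PCR, with primers on the spotted sequence and primers outside it. For none of them did loaded and control tibiae differ significantly with either primer set.

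The genes listed beside Ralgapa1 were spread around 0. No other RalGAP subunit and no Ral protein was among the named probes, so its closest relatives were not compared. Of 7 other genes of Ral and related GTPases and their regulators with values, which were Rheb, Tsc2, Mras, Rasa1, Nf1, Tcf12 and Mtor, 3 had a mean ratio above 0 in LOAD and 3 in SHAM, with medians of -0.02 and -0.004, and 0 passed the SHAM test. Over all genes the medians were -0.01 in LOAD and 0.003 in SHAM. Tcf12, which encodes a transcription factor of the class that GRIPE was named for binding, was among them.

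No other probe was named here as a vomeronasal receptor, so V2R2B was set only beside more distant receptors of its class. Among class C receptors, Casr carried signal in 8 channels and Grm5 in 0, whereas V2R2B did so in 17. Grm5 is a metabotropic glutamate receptor. Casr had a mean log2 ratio of 0.11 ± 0.10 in LOAD (n = 4) and 0.08 ± 0.16 in SHAM (n = 5). The other named olfactory receptor, Or1n1, carried signal in 1 channel and had a mean log2 ratio of -0.08 ± 0.45 in LOAD and -0.03 ± 0.17 in SHAM (n = 5 each).

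In LOAD 0 of 4707 genes had a limma false discovery rate below 20% (0%), and 157 had an unadjusted p under 0.05 (3.34%). The study, which fitted fewer genes and used duplicate spots, had all 3 probes below 20%, so the order given next can differ from its own. It comes from the same LOAD arrays and the same contrast that chose the probes, so nothing is read from their ranks. As a description, the probes with a ratio above 0 in LOAD were ordered by the unadjusted p. V2R2B was number 5, Ralgapa1 number 6 and QFG-TN1 number 8, just after Mepe at number 4. U24070, number 3, had a log2 ratio of 0.27 ± 0.15 with signal in 15 of 20 channels. L15354, number 7, had a log2 ratio of 0.40 ± 0.27 with signal in 13 of 20 channels, and Cd53, a leukocyte tetraspanin at number 9, had 0.29 ± 0.18 with signal in 20. The first and second of this order, L16764 and AF053100, carried signal in 3 and 2 channels.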

How the data were processed

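RNA of treated and control tibiae of 10 rats was compared on 10 spotted oligonucleotide arrays. Scanned spots were quantified by the authors in BlueFuse (2.0 in the headers). The deposited files hold a single row per accession, whereas the methods treated duplicate spots separately, so duplicates could not be modelled here. The deposited file of each array gives an intensity per channel without normalization, and a spot confidence and signal probability, each deposited as a fraction. The deposited matrix gives log2 ratios, equal to those of the intensities, and served as an alternative.

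A spot counted as missing where its confidence was below 0.11, as the methods state. Ratios were normalized by loess (span 0.3, 4 iterations) in limma 3.58.1 (R 4.3.3) and expressed as treated over control tibia. Levels came from the same arrays after Aquantile normalization. Group means were fitted over the 4707 genes with at most 1 missing value, and mean levels over the 4472 with none, with Benjamini-Hochberg adjustment. RefSeq accessions named 1177 probes and the study 7, and 3619 had no name here. No sequence or position was used here. Some listed genes are not reported here. The dyes come from the labels and headers. Tests were checked on simulated data. The number of arrays limits the precision, and each array is 1 rat.

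The members, marker lists, rule for named genes (the most alike probes and those next in order) and tests were chosen with earlier results of these data known. Alternatives changed normalization, filters, dye and batch terms, labels and arrays.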

Additional observations from a re-analysis of the deposited data

How the results depend on the processing

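The LOAD ratios, their differences from SHAM and the SHAM ratios kept their direction under most alternatives. Without normalization, and equally in the deposited matrix, the SHAM ratio was -0.32 for Ralgapa1, -0.29 (-0.288 in the matrix) for V2R2B and -0.28 (-0.279) for QFG-TN1, and the LOAD ratio of Ralgapa1 was 0.19. The median unnormalized ratio was 0.80 on LOAD 1 and -1.18 on SHAM 3. With median centring, 4 of 5 LOAD arrays were above 0 for each probe. With SHAM 1 counted as LOAD, the SHAM ratio of Ralgapa1 was -0.028. With rebuilt pairs, chosen after seeing the data, LOAD minus SHAM was 0.0812 for Ralgapa1. None of the SHAM ratios passed the test under any alternative (adjusted p from 0.398 to 1.00).

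Leaving out each array in turn, the SHAM ratio ranged from -0.028 to 0.23 for Ralgapa1, from -0.0228 to 0.28 for V2R2B and from 0.03 to 0.21 for QFG-TN1. The mean level difference ranged from -0.24 to 0.0545, from 0.04 to 0.49 and from -0.16 to 0.30, and the count of genes past 20% from 0 to 2 (2 without LOAD 3). The dye coefficient of Ralgapa1 ranged from -0.28 to -0.17 and passed without LOAD 2 or LOAD 3, while that of Mepe was -0.35 and did not pass with median centring, nor on leaving out each of 6 arrays. The r ranged from 0.35 to 0.78 for Ralgapa1 with V2R2B, 0.37 to 0.68 with QFG-TN1 and 0.87 to 0.95 with Mepe, 0.93 to 0.97 for V2R2B with QFG-TN1, and 0.69 to 0.92 and 0.74 to 0.87 for V2R2B and QFG-TN1 with Mepe.

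The r of Ralgapa1 with V2R2B and with QFG-TN1 passed the test at 0.90 and 0.87 with median centring, 0.78 and 0.79 between control tibiae, and 0.80 and 0.79 with rebuilt pairs. With the group means kept they were 0.78 and 0.68, a description only, since the LOAD means that chose the probes then enter. With the dye orientation removed that of Ralgapa1 with Mepe, 0.87, did not pass in the coarser test of 144 orders. The cause was not tested.

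Same-numbered arrays correlated at -0.10 to 0.24 in mean level. The SHAM array most alike in level had the same number for LOAD 2, LOAD 3 and LOAD 4 and another for LOAD 1 and LOAD 5. These values do not settle whether the numbers pair the rats, and the main fits did not pair them. With the number as a replicate block LOAD minus SHAM stayed at 0.43 for Ralgapa1, the counts stayed at 0, and no call changed.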
